A study of Mus musculus with 6 samples.

Results

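The semaphorins, their plexin receptors and the neuropilin co-receptors were followed in RNA sequencing libraries of postmitotic neurons from mouse cortex at stage E14.5. The members were the protein-coding genes whose symbol in the GENCODE vM21 annotation names a semaphorin of classes 3 to 7, a plexin of the A, B, C or D group, or a neuropilin. The rule found 31 genes among the 34289 genes of the annotation that had transcripts in the files, namely 20 semaphorins, 9 plexins and 2 neuropilins. Neurons labelled Rp58-/-, a genotype with no intact copy of Rp58 (mutant, 3 libraries), were set against neurons labelled Rp58+/+, a genotype with both copies (control, 3 libraries). Genotypes are those of the labels. The level of the targeted gene, given below, was higher in mutant 3 than in the other mutants, and what made it so was not tested. The annotation lists Rp58 as Zbtb18, which encodes a transcriptional repressor with zinc fingers that cortical neurons need in order to mature. The labels do not say how the neurons were isolated, how the allele was made, or whether separate embryos gave the libraries within each genotype, so the p-values measure the spread between these libraries, which may be technical in part.

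Semaphorins are guidance cues that repel or attract growing axons, dendrites and migrating neurons. Plexins are their transmembrane receptors and act on small GTPases and on the cytoskeleton. Semaphorins of class 3 are secreted, and most of them reach plexins of the A group through a neuropilin. The membrane-bound semaphorins of classes 4, 5 and 6 instead bind plexins directly. In the developing cortex these genes guide the axons of projection neurons, orient dendrites and steer migrating neurons.

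Total estimated counts ran from 53044306 to 56472475 in mutant libraries and from 34645505 to 75892649 in control libraries. The effective lengths in the files divided the libraries into 2 types. In mutant 1, mutant 2 and control 1 every long transcript was 249 bases longer than its effective length (fixed-length), and in mutant 3, control 2 and control 3 that difference lay between 133.667 and 139.2 bases (estimated-length). Mitochondrial transcripts held 3.58% to 5.15% of counts in fixed-length and 16.4% to 17.5% in estimated-length libraries. Of the transcripts listed, 49.1% to 56.0% were above 0 in fixed-length and 67.7% to 71.5% in estimated-length libraries. The labels do not mention these types. They were crossed unevenly with genotype, so each genotype effect below comes from a model with a term for library type. Values within each type are given for some of the genes. Zbtb18 had 46.7, 45.7 and 538 CPM (counts scaled to a common, normalized library size) in mutants 1, 2 and 3, against 1902, 1587 and 1697 CPM in controls 1, 2 and 3. All mutants lay below all controls, but mutant 3, the only estimated-length mutant, kept 32.8% of the level of the controls of its type, whereas mutants 1 and 2 kept 2.45% and 2.40%. At this gene, mutant 3 thus stood apart from the other libraries labelled Rp58-/-. The calls of Plxna4, Sema3a, Sema3b, Sema3e, Sema4b and Sema6c below were lost when it was left out. The estimated-length type then holds controls only, so that fit sets mutants 1 and 2 against control 1 alone. In the same way, the fit without control 1 sets mutant 3 against controls 2 and 3. Sema3b, Sema4b and Sema6c also lost the call without certain controls. Over both types Zbtb18 changed by -3.48 ± 0.81 on the log2 scale (SE, edgeR adjusted p = 0.0337), with -5.36 without mutant 3 and -1.59 without control 1. The call was lost without mutant 1, mutant 2 or control 3 (edgeR adjusted p = 0.0511 to 0.119). In a list of 10 markers of cortical neurons the summed level was 5558 to 8157 CPM in mutants and 7567 to 10082 CPM in controls, with 5 members lower (Dcx, Stmn2, Neurod6, Tbr1 and Bcl11b) and 2 higher (Slc17a6 and Rbfox3). Within each library type this sum was lower in mutants, where mutants 1 and 2 had 8157 and 7335 CPM and control 1 had 10082 CPM, while mutant 3 had 5558 CPM and controls 2 and 3 had 7920 and 7567 CPM. The summed level stayed under 4 CPM in every library for interneuron, endothelial, mural and meningeal, microglial and oligodendrocyte lineage markers, of which Sox10 alone was at 0 throughout. At these low levels the oligodendrocyte lineage sums were 1.56, 2.13 and 3.75 CPM in mutants, against 0.827, 1.21 and 1.11 CPM in controls, with both tested members, Pdgfra and Cspg4, called higher, and Dlx5 of the interneuron list was called higher too. Erythroid markers summed to 5.89 to 20.4 CPM in mutants and 6.61 to 11.2 CPM in controls. A list of 9 progenitor markers summed to 177 to 373 CPM in mutants and 88.8 to 238 CPM in controls. Of these, 6 were called higher (Pax6, Sox2, Hes1, Eomes, Mki67 and Top2a) and 1 lower (Vim). Within each library type the progenitor sum was higher in mutants. Mutants 1 and 2 had 373 and 298 CPM and control 1 had 238 CPM. Mutant 3 had 177 CPM and controls 2 and 3 had 88.8 and 101 CPM. The 6 Cajal-Retzius markers summed to 262 to 722 CPM in mutants and 206 to 731 CPM in controls, with 2 higher and none lower. The part of these cells in the results below was not tested.

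Of the 31 genes, 29 had enough counts to be tested. Of these, 15 passed adjusted p 0.05 in the test over all genes, 11 higher and 4 lower in mutants, which is 51.7% of the members tested, beside 14.9% of all 16985 genes tested (7.92% higher and 7.01% lower). The median log2 fold change was 0.46 over the members and -0.00077 over all genes, and the median size of a change without regard to sign was 0.76 and 0.27. Groups did not overlap for 13 members, with 10 above and 3 below the controls, beside 15.4% of all genes (8.8% above and 6.64% below). At least 2-fold changes were called in 11 members (7.45% of all genes) and at least 4-fold changes in 4 (3.31% of all genes, 2.32% higher). Without mutant 3 the member counts were 8 higher and 3 lower, beside 994 higher and 563 lower over all genes (1346 and 1191 with all libraries). These 8 include Plxnd1 and Sema4c, which did not pass over all libraries and had log2 fold changes of 1.01 and 1.43 there. Without the term for library type they were 3 higher, namely Nrp2, Sema5a and Sema5b, and 2 lower, namely Nrp1 and Sema6d, beside 2.36% of all genes (1.59% higher and 0.765% lower). In bulk RNA a lower share of cells that carry a transcript and less of it per cell cannot be told apart.

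**Figure D1:**
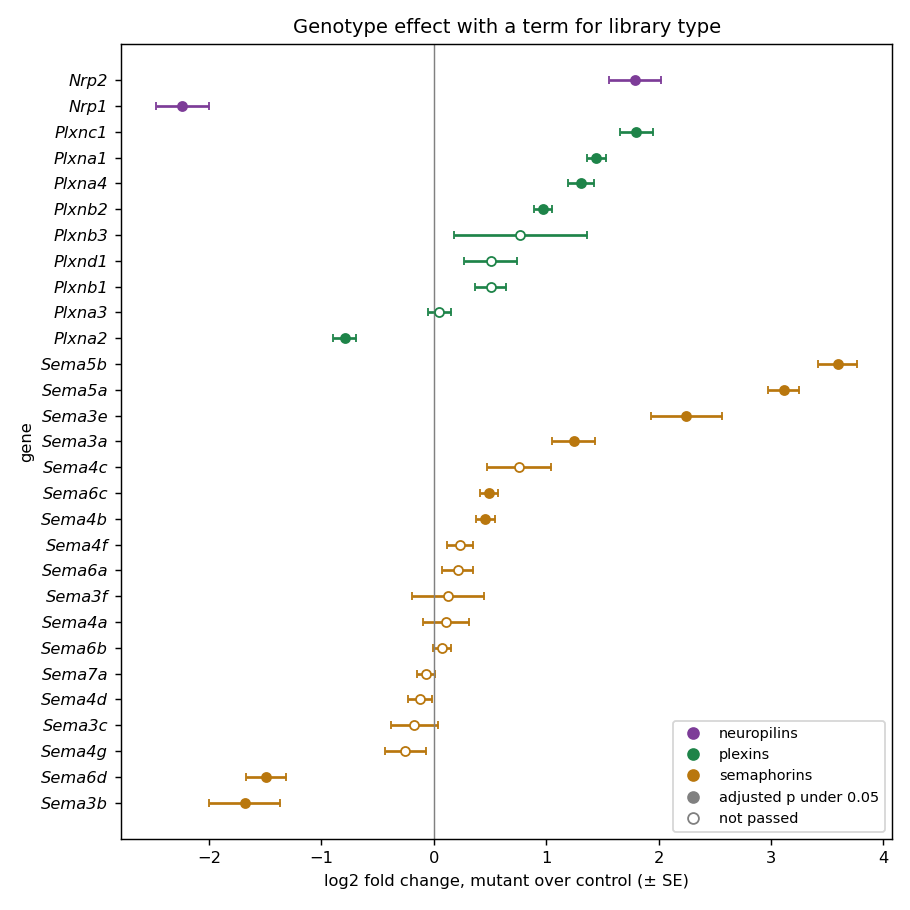
Log2 fold change of each tested gene, mutant over control, with its standard error, from the fit with a term for library type. Neuropilins, plexins and semaphorins are grouped from top to bottom. Filled points passed adjusted p 0.05, with Sema5b at 3.60 farthest to the right and Nrp1 at -2.24 farthest to the left.

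The 2 neuropilin genes moved in opposite directions. Nrp1, the co-receptor through which Sema3a acts on axons and which also binds VEGF, had 35.2, 30.6 and 53.1 CPM in mutants 1, 2 and 3, against 218, 151 and 205 CPM in controls 1, 2 and 3. Each mutant lay well below each control. Nrp1 fell to 39.6 ± 11.9 CPM in mutants, against 192 ± 35.3 CPM in controls (SD, n = 3 each), and by the fit it was 4.71-fold higher in controls (log2 fold change -2.24 ± 0.24, edgeR adjusted p = 0.00138). Nrp2, the co-receptor for Sema3f and Sema3c, had 155, 124 and 212 CPM in mutants, against 58.3, 40.5 and 44.7 CPM in controls. All mutants lay above all controls. Nrp2 rose 3.46-fold (log2 fold change 1.79 ± 0.23, edgeR adjusted p = 0.00321). Both calls held in each of the 6 fits that left out 1 library.

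The balance of the 2 neuropilins was also described within each library, as a ratio of the authors' TPM values, which are scaled by transcript length. This ratio was chosen after its values were seen and was not tested. Nrp2 over Nrp1 was 4.10, 3.78 and 3.87 in mutants 1, 2 and 3, against 0.249, 0.259 and 0.210 in controls 1, 2 and 3. Nrp2 was thus the more abundant neuropilin per length in each mutant and Nrp1 in each control, in both library types.

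The promoters of these genes are shown because the pair moved apart. They are the 250 bases before the start of each gene in RefSeq (GRCm38.p6), with capitals for the letters GGGCGG on either strand, the core of the GC box bound by Sp1 factors, where overlapping matches run together.
Nrp1, chr8:128358823-128359072, + strand: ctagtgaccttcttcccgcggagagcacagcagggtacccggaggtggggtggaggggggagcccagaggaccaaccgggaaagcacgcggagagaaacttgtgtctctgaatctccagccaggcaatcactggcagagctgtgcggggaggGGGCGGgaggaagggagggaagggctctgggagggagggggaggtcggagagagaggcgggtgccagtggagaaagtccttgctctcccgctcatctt
Nrp2, chr1:62703067-62703316, + strand: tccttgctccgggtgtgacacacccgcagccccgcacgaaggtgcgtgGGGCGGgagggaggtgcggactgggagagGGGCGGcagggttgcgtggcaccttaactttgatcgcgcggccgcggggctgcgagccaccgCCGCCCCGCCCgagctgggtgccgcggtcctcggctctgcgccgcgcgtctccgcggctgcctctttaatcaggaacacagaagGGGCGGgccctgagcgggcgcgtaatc
The Nrp1 window held 1 match and the Nrp2 window 5. RP58 is known to bind DNA with the letters CATCTG, and these letters were on neither strand of either window.

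**Figure D2:**
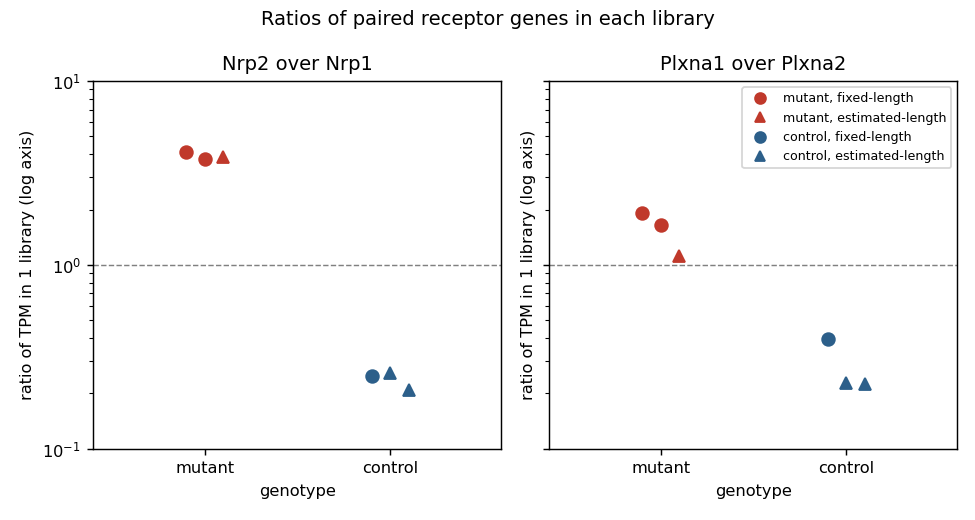
Ratio of TPM values of 2 genes in 1 library on a log axis, for Nrp2 over Nrp1 and for Plxna1 over Plxna2, with mutants left and controls right and symbols by library type. Both ratios lie above 1 in every mutant (3.78 to 4.10 and 1.13 to 1.91) and below 1 in every control (0.210 to 0.259 and 0.224 to 0.397).

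Among the 4 plexins of the A group, 2 rose and 1 fell (75%, beside 14.9% of all genes). Plxna1, a receptor for Sema6d and, with neuropilins, for class 3 semaphorins, had 501, 498 and 689 CPM in mutants, against 179, 249 and 267 CPM in controls. All mutants were higher than all controls, and the fold change was nearly the same in both library types. Plxna1 rose 2.73-fold (log2 fold change 1.45 ± 0.08, edgeR adjusted p = 0.000118), with 1.48 ± 0.14 in the fixed-length and 1.42 ± 0.12 in the estimated-length libraries. Plxna2, a receptor for Sema6a and a partner of Nrp1, had 320.4, 345 and 689 CPM in mutants, against 534, 1221 and 1362 CPM in controls. The groups overlapped, because the estimated-length libraries were higher in each genotype, but within each library type the mutants lay below the controls. Plxna2 was 1.73-fold higher in controls (log2 fold change -0.79 ± 0.10, edgeR adjusted p = 0.00294). In TPM, Plxna1 over Plxna2 was 1.91, 1.65 and 1.13 in mutants, against 0.397, 0.227 and 0.224 in controls, again a description chosen after the values were seen. Plxna3, the A plexin that serves Nrp2 in the response to Sema3f, had 231 ± 30.3 CPM in mutants and 249.9 ± 53.7 CPM in controls and did not pass (edgeR adjusted p = 0.792). Its 95% interval ran from -0.19 to 0.29 on the log2 scale.

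Plxna4, a receptor for Sema3a and Sema6a in cortical neurons, was listed at 0 in mutants 1 and 2 and in control 1, the 3 fixed-length libraries. Its level was 194 CPM in mutant 3, whereas controls 2 and 3 had 80.3 and 75.9 CPM. The files list a single transcript for this gene, and it was the only protein-coding gene at exactly 0 in all fixed-length libraries with over 1000 counts in each estimated-length one. A level of 0 in those libraries was therefore not read as absence, and what made it was not tested. The value of Plxna4 (log2 fold change 1.31 ± 0.12, edgeR adjusted p = 0.00322) rests on 1 mutant library. Without mutant 3 there is no value for it.

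Plxnc1, the receptor for Sema7a, had 71.6, 66.2 and 98.1 CPM in mutants, against 16.2, 36.4 and 31.6 CPM in controls. Every mutant was higher than every control. Plxnc1 rose 3.48-fold (log2 fold change 1.80 ± 0.15, edgeR adjusted p = 0.000479). Plxnb2, a receptor for semaphorins of class 4 that is needed for neural tube closure in mice, had 454, 449 and 314 CPM in mutants, against 227, 160.3 and 165 CPM in controls. It too was separated between genotypes and rose 1.96-fold (log2 fold change 0.97 ± 0.08, edgeR adjusted p = 0.000460). Its log2 fold change was 0.99 ± 0.13 in the fixed-length and 0.95 ± 0.12 in the estimated-length libraries. Per length, Plxnb2 held the highest TPM of the 31 genes in mutants 1 and 2 and in control 1, and Plxna1 held it in mutant 3, whereas Plxna2 held it in controls 2 and 3 (45.5 and 43.4 TPM). In control 1 the lead was slight, at 68.4 TPM for Plxnb2, 68.3 for Sema6c and 65.9 for Plxna2.

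The other plexin genes did not pass. Plxnb1, the receptor for Sema4d, had 149, 191 and 148 CPM in mutants, against 105, 120.1 and 119 CPM in controls. The groups did not overlap, and its log2 fold change of 0.51 ± 0.14 gave edgeR adjusted p = 0.0566, with 0.00689 to 0.436 over the 13 alternatives. Plxnd1, the receptor for Sema3e, had 213, 263 and 196 CPM in mutants, against 118, 205 and 187 CPM in controls, with edgeR adjusted p = 0.212. Plxnb3 had 4, 6 and 21 counts in mutants, against 0, 22 and 14 counts in controls, and edgeR adjusted p = 0.444.

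**Figure D3:**
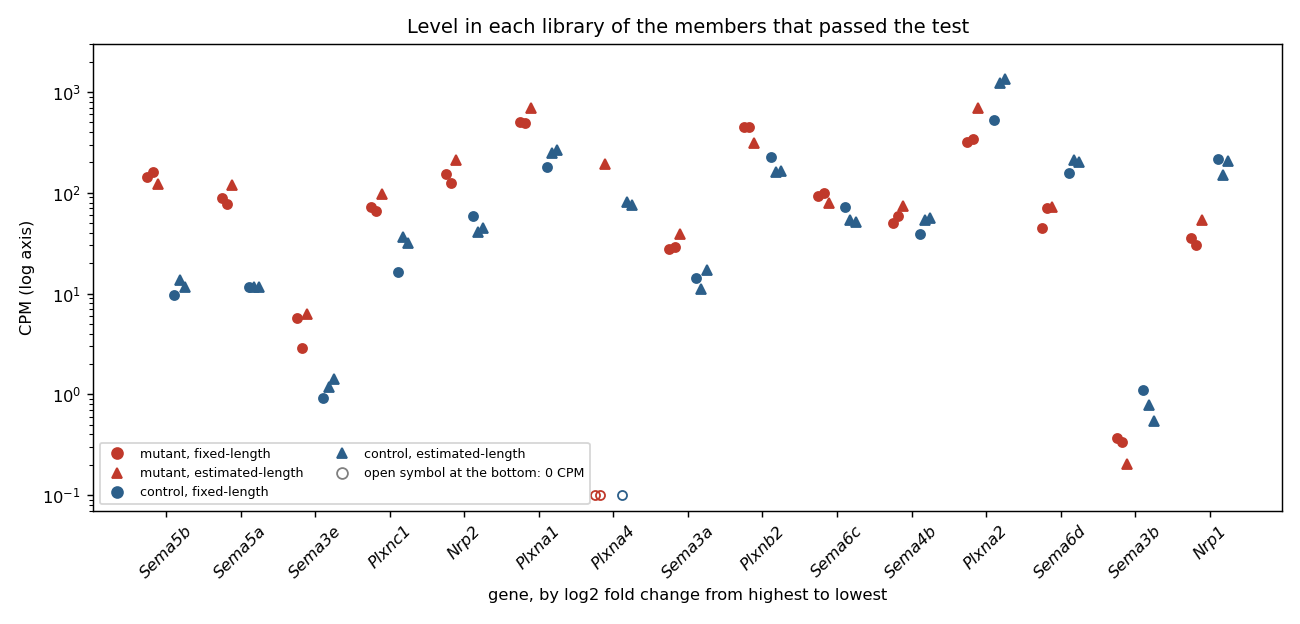
Level of the 15 genes that passed, in CPM on a log axis, with mutants left and controls right of each position and symbols by library type. Sema5b and Sema5a lie at 77.9 to 159 CPM in mutants and at 9.76 to 13.5 CPM in controls, and open symbols mark the 3 libraries in which Plxna4 was listed at 0.

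The class 5 semaphorins showed the largest rises among the 29 tested members. Sema5b, a transmembrane protein with thrombospondin repeats, had 142, 159 and 122 CPM in mutants, against 9.76, 13.5 and 11.6 CPM in controls. Sema5a, its close relative, had 88.0, 77.9 and 120.2 CPM in mutants, against 11.6, 11.6 and 11.7 CPM in controls. Both genes stood at a similar low CPM in the controls, and every mutant lay far above every control. Sema5b rose 12.1-fold (log2 fold change 3.60 ± 0.17, edgeR adjusted p = 6.8e-05) and Sema5a rose 8.65-fold (3.11 ± 0.14, edgeR adjusted p = 5.8e-05). Plxna1 and Plxna3 are known as their receptors in the mouse retina. By comparison, 1.15% of all genes tested were called and rose at least 8-fold. Both calls held without the library type term and in each fit that left out 1 library.

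The promoters of the 2 genes are printed as for the neuropilins, since these genes rose most.
Sema5a, chr15:32244563-32244812, + strand: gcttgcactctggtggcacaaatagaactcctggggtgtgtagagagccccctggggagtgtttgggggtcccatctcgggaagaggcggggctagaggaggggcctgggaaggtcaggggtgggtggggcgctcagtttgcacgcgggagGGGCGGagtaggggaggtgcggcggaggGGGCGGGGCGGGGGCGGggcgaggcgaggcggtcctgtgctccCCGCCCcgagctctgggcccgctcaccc
Sema5b, chr16:35541112-35541361, + strand: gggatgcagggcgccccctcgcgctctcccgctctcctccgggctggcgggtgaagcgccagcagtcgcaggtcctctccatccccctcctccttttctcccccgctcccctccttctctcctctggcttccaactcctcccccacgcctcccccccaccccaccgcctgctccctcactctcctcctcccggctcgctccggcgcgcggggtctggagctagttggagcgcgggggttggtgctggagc
The Sema5a window held 5 matches of GGGCGG, some of which overlap, and the Sema5b window none. Neither held CATCTG. RefSeq windows matched 26 of the 31 members by symbol, 12 of them called, and none of these 12 held CATCTG on either strand, beside 14.2% of 17492 protein-coding genes with a window. Sema3c and Sema4a, which were not called, were the 2 members that did. Sema4a alone held the longer form ACATCTGG, present in 0.875% of protein-coding genes, in a stretch shown with these letters in capitals.
Sema4a, chr3:88459229-88459268, - strand: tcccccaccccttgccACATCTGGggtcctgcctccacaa
GGGCGG was in the windows of 21 of the 26 members (80.8%), beside 45.8% of protein-coding genes. The median GC content was 64% over windows of members and 55.6% over windows of protein-coding genes, and its part in that difference was not tested. These matches describe letters in a short window and say nothing of binding elsewhere.

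Of the 5 tested class 3 semaphorins, which are secreted, 2 rose, 1 fell and 2 did not pass (60% called, beside 14.9% of all genes). Sema3a, the classical repellent of cortical axons and an attractant of their apical dendrites, had 27.8, 29.2 and 39.2 CPM in mutants, against 14.4, 11.0 and 17.0 CPM in controls. All mutants lay above all controls, and Sema3a rose 2.37-fold (log2 fold change 1.24 ± 0.19, edgeR adjusted p = 0.00686). Sema3e, which binds Plxnd1 without a neuropilin, had 5.69, 2.88 and 6.30 CPM in mutants, against 0.922, 1.19 and 1.42 CPM in controls. Although low, its levels did not overlap, and it rose 4.74-fold (log2 fold change 2.25 ± 0.32, edgeR adjusted p = 0.00475). Without mutant 3 the edgeR adjusted p was 0.0916 for Sema3a and 0.0630 for Sema3e, the highest of the fits with the library type term, and each kept its direction in all 13 alternatives. Sema3b was close to the floor of detection, with 19, 18 and 10 counts in mutants, against 35, 53 and 23 counts in controls. It was 3.21-fold higher in controls (log2 fold change -1.68 ± 0.31, edgeR adjusted p = 0.0147). That call was lost without mutant 3 and without controls 1, 2 or 3 (edgeR adjusted p = 0.0532 to 0.164), and when transcripts not annotated as protein-coding were left out (edgeR adjusted p = 0.515), and a transcript annotated for nonsense-mediated decay held 35.7% to 100% of its counts.

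Sema3c, a ligand of both neuropilins, had 54.4, 35.9 and 60.4 CPM in mutants, against 63.9, 60.2 and 48.5 CPM in controls, and edgeR adjusted p = 0.638. Sema3f, the main ligand of Nrp2, had 17.3, 24.8 and 4.56 CPM in mutants, against 12.7, 5.98 and 6.99 CPM in controls, and edgeR adjusted p = 0.840. Neither gene separated the genotypes. Sema3d and Sema3g had too few counts to be tested, at 9, 9 and 34 counts for Sema3d and 4, 6 and 13 for Sema3g in mutants, against 0, 12 and 5 and against 9, 4 and 2 in controls.

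In class 6, Sema6d fell and Sema6c rose. Sema6d, a transmembrane ligand of Plxna1, had 44.4, 70.4 and 72.2 CPM in mutants, against 158, 213 and 204 CPM in controls. The highest mutant lay below the lowest control. Sema6d was 2.82-fold higher in controls (log2 fold change -1.49 ± 0.18, edgeR adjusted p = 0.00222), and the fall was close to equal in the 2 library types, at -1.46 ± 0.25 in fixed-length and -1.53 ± 0.28 in estimated-length libraries. Sema6c, a less studied member of the class, had 93.3, 98.6 and 78.5 CPM in mutants, against 72.7, 53.7 and 51.1 CPM in controls. It rose 1.41-fold (log2 fold change 0.49 ± 0.08, edgeR adjusted p = 0.00798), a call lost without mutant 3 or control 2 (edgeR adjusted p up to 0.105). Sema6a, the ligand of Plxna2 and Plxna4, had 15.9, 21.6 and 38.9 CPM in mutants, against 15.5, 36.6 and 33.0 CPM in controls, and Sema6b had 44.7 ± 3.82 CPM in mutants and 45.8 ± 6.57 CPM in controls. Neither passed (edgeR adjusted p = 0.355 and 0.599).

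Class 4 held 1 call among 6 members (16.7%, beside 14.9% of all genes). Sema4b, a transmembrane semaphorin of neurons and glia, had 50.7, 58.5 and 74.6 CPM in mutants, against 39.0, 54.1 and 56.3 CPM in controls. Its groups overlapped, and it was 1.38-fold higher in mutants within the fit (log2 fold change 0.46 ± 0.09, edgeR adjusted p = 0.0155). The call was lost without mutant 3 or any 1 control (edgeR adjusted p up to 0.125). Sema4d, the ligand of Plxnb1, averaged 81.0 ± 7.28 CPM in mutants and 87.7 ± 6.55 CPM in controls. Sema4g had 113 ± 52.6 CPM in mutants and 104 ± 31.3 CPM in controls, Sema4f had 44.2 ± 15.8 CPM in mutants and 30.3 ± 8.11 CPM in controls, and Sema4a had 10.1 ± 3.34 CPM in mutants and 7.93 ± 0.563 CPM in controls. Sema4c, a ligand of Plxnb2, had 19.6 ± 2.57 CPM in mutants and 15.8 ± 7.97 CPM in controls. None of these 5 passed, with edgeR adjusted p between 0.131 for Sema4c and 0.776 for Sema4a.

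Sema7a, the membrane-anchored ligand of Plxnc1, had 108, 117 and 83.1 CPM in mutants, against 115, 93.4 and 86.3 CPM in controls. The genotypes overlapped, with a log2 fold change of -0.07 ± 0.08 and edgeR adjusted p = 0.608. Its receptor gene Plxnc1 had risen 3.48-fold. For 11 of the 14 tested members that did not pass, the 95% interval of the log2 fold change lay within -1 and 1. It was narrowest for Sema6b (-0.12 to 0.26), Sema7a (-0.26 to 0.12), Plxna3 (-0.19 to 0.29) and Sema4d (-0.37 to 0.13). A p that misses the threshold does not show that these genes did not differ. The interval reached past 1 for Sema4c (0.08 to 1.44), Plxnd1 (-0.06 to 1.07) and Plxnb3 (-0.65 to 2.19).

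Each library type holds 1 genotype with a single library, control 1 among the fixed-length and mutant 3 among the estimated-length ones. The fit within types therefore pooled the spread over all libraries, and the lone library is assumed to vary like the others. Changes of the called members had the same sign in both library types for 14 of 15, the exception being Plxna4, which has no fixed-length value. These 15 were called in the fit over both types of the same libraries. That choice favours equal signs, so the count is a description and not a replication. Within the fixed-length libraries 11 members passed, 8 higher and 3 lower, beside 9.46% of all genes (6.05% higher and 3.41% lower). Within the estimated-length libraries 13 passed, 10 higher and 3 lower, beside 7.92% of all genes (4.6% higher and 3.32% lower). The difference between the 2 effects passed for none of the 29 members by edgeR (0.153% of all genes), and 10 members had an unadjusted p under 0.05, beside 7.19% of all genes. Sema4c had a log2 fold change of 1.43 ± 0.17 within fixed-length and 0.15 ± 0.15 within estimated-length libraries, a difference of -1.28 ± 0.23 (edgeR unadjusted p = 0.00147, adjusted p = 0.214). Plxnd1 had 1.01 ± 0.18 within fixed-length and 0.0015 ± 0.17 within estimated-length libraries (difference edgeR unadjusted p = 0.00611, adjusted p = 0.372), and Sema3f had 0.73 ± 0.27 within fixed-length and -0.51 ± 0.28 within estimated-length libraries (edgeR unadjusted p = 0.0196, adjusted p = 0.541). Nrp2 went the other way, at 1.26 ± 0.18 within fixed-length and 2.31 ± 0.16 within estimated-length libraries (edgeR unadjusted p = 0.00452, adjusted p = 0.338). Nrp1 fell more within fixed-length libraries, at -2.73 ± 0.20, than within estimated-length ones, at -1.75 ± 0.22 (edgeR unadjusted p = 0.0148, adjusted p = 0.488). The other members with unadjusted p under 0.05 were Sema5b, Sema5a, Plxnc1, Sema4a and Plxnb3. Within fixed-length and estimated-length libraries Sema5b had 3.95 and 3.27, Sema5a 2.83 and 3.37, and Plxnc1 2.09 and 1.53. Sema4a had 0.49 and -0.27, and Plxnb3, with few counts, 5.26 and 0.37. The estimated-length type holds 1 mutant, which is also the mutant that kept Zbtb18, so the library type and the remaining Zbtb18 cannot be told apart.

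**Figure D4:**
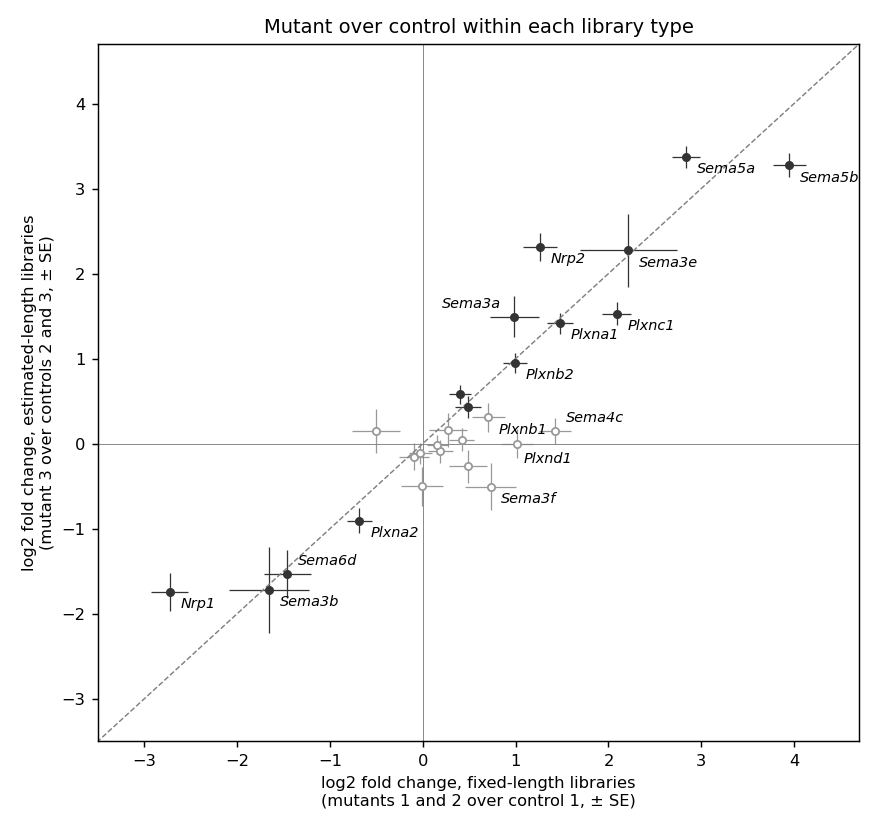
Log2 fold change, mutant over control, within the fixed-length libraries (x axis) and within the estimated-length libraries (y axis), each with its standard error. Filled points passed in the fit over both types, the dashed line marks equal effects, and Plxna4 and Plxnb3 are left out because a group there was listed at 0. Sema4c and Plxnd1 lie at 1.43 and 1.01 on the x axis and near 0 on the y axis.

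Shares of counts among transcript models were compared within genes. All counts of Nrp1, Sema5a, Plxnc1, Sema7a and Sema3f were on 1 transcript in every library, so their values rest on no division between models. For Nrp2, the transcript of 6342 bases held 58.3%, 66.5% and 22.8% of counts in mutants 1, 2 and 3, against 79.8%, 22.4% and 21.4% in controls 1, 2 and 3. The Nrp2 transcript of 6708 bases held 27.1%, 19.4% and 59.3% in mutants, against 13.8%, 42.5% and 54.9% in controls. The fixed-length libraries stood apart from the estimated-length ones in both genotypes. For Sema5b, the transcript of 4350 bases held 85.5%, 86.2% and 46.9% in mutants, against 80.0%, 57.5% and 46.6% in controls, with the same division. Sema3e differed from these, as its retained-intron transcript held 4.83%, 8.38% and 12.3% of counts in mutants, against 0% in every control. The Sema3e controls had 29, 80 and 60 counts in all, and these shares were not tested.

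Genes that act beside plexins were described from 3 lists of co-receptors, cytoplasmic effectors and VEGF genes that share neuropilins. Of 50 tested partners, 11 rose and 5 fell (32.0%, beside 14.9% of all genes), and 2 rose and 1 fell without the library type term. The counts were 5 and 4 without mutant 3, 6 and 2 without control 1, 7 and 3 without control 2, and 6 and 3 without control 3. In the same order, these fits called 994 and 563, 785 and 509, 844 and 566, and 830 and 599 of all genes. Met, the receptor for hepatocyte growth factor that associates with plexins of the B group, rose to 35.6 ± 10.3 CPM in mutants, against 1.04 ± 0.346 CPM in controls (log2 fold change 5.32 ± 0.20, edgeR adjusted p = 3.4e-05). Nrcam, an adhesion molecule that joins Nrp2 in the response to class 3 semaphorins, rose to 62.0 ± 5.72 CPM in mutants, against 22.4 ± 9.68 CPM in controls (log2 fold change 1.74 ± 0.24, edgeR adjusted p = 0.00442). L1cam, the adhesion molecule that joins Nrp1 in the response to Sema3a, fell to 233 ± 14.0 CPM in mutants, against 388 ± 39.3 CPM in controls (log2 fold change -0.67 ± 0.09, edgeR adjusted p = 0.00317). Of the other adhesion molecules listed, Chl1, which joins Nrp1 in the response to Sema3a, had 258 ± 28.1 CPM in mutants and 330.2 ± 60.8 CPM in controls and did not pass (edgeR adjusted p = 0.280), nor did Cntn2 (edgeR adjusted p = 0.555).

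Of the 13 tested co-receptors, 4 rose and 2 fell (46.2%, beside 14.9% of all genes). Kdr, the VEGF receptor that pairs with Nrp1, stayed low, at 0.920 ± 0.580 CPM in mutants and 0.242 ± 0.170 CPM in controls (edgeR adjusted p = 0.00761). The log2 fold change of Kdr was 2.46 ± 0.39, with 4.69 from protein-coding transcripts only and 1.90 without the library type term. It was 3.16 without mutant 3, where the call was lost (edgeR adjusted p = 0.0618, with 0.000293 to 0.640 over the 13 alternatives). Endothelial markers summed to 0.811 to 3.30 CPM in mutants and 0.731 to 2.35 CPM in controls, and their part in this value was not tested. Erbb2, a kinase that associates with Plxnb1, fell to 0.485 ± 0.0171 CPM in mutants, against 0.972 ± 0.0627 CPM in controls, a call that each of the 6 fits with a library left out lost (edgeR adjusted p = 0.0469, and 0.0414 to 0.630 over the alternatives).

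Among 32 tested effectors, 6 rose and 3 fell (28.1%, beside 14.9% of all genes). Rnd1 and Rnd3, small GTPases of one family that bind plexins, moved apart. Rnd1, which opens the GTPase-activating domain of Plxna1, fell to 2.22 ± 0.0875 CPM in mutants, against 9.76 ± 2.74 CPM in controls (log2 fold change -2.23 ± 0.19, edgeR adjusted p = 0.000599). Rnd3 rose to 294 ± 35.9 CPM in mutants, against 97.4 ± 17.5 CPM in controls (1.56 ± 0.17, edgeR adjusted p = 0.00154). Rnd2, of the same family, was called higher too (0.40 ± 0.10, edgeR adjusted p = 0.0373), a call kept in 1 of the 6 fits that left out a library. Mical2, an enzyme that oxidises actin, rose to 25.3 ± 16.7 CPM in mutants, against 8.55 ± 3.24 CPM in controls (1.91 ± 0.23, edgeR adjusted p = 0.00248). Dpysl5 and Dpysl4, members of the collapsin response mediator family, went opposite ways, with log2 fold changes of 0.56 ± 0.08 and -0.58 ± 0.08 (edgeR adjusted p = 0.00506 and 0.00483). Dpysl2, Dpysl3 and Crmp1 of that family did not pass (edgeR adjusted p = 0.868, 0.0964 and 0.167). Cdk5, a kinase of the response to Sema3a, had a log2 fold change of -0.37 ± 0.07 (edgeR adjusted p = 0.0163). The call of Dpysl4 was lost without control 1 (edgeR adjusted p = 0.0657), and that of Cdk5 without mutant 3 or any 1 control (edgeR adjusted p up to 0.141). Of 5 tested VEGF genes, Vegfc, a ligand of Nrp2, was the 1 called (20%, beside 14.9% of all genes). Vegfc had 0.819 ± 0.208 CPM in mutants and 0.338 ± 0.120 CPM in controls (edgeR adjusted p = 0.0309). None of the fits that left out a library kept this call (edgeR adjusted p up to 0.184).

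**Figure D5:**
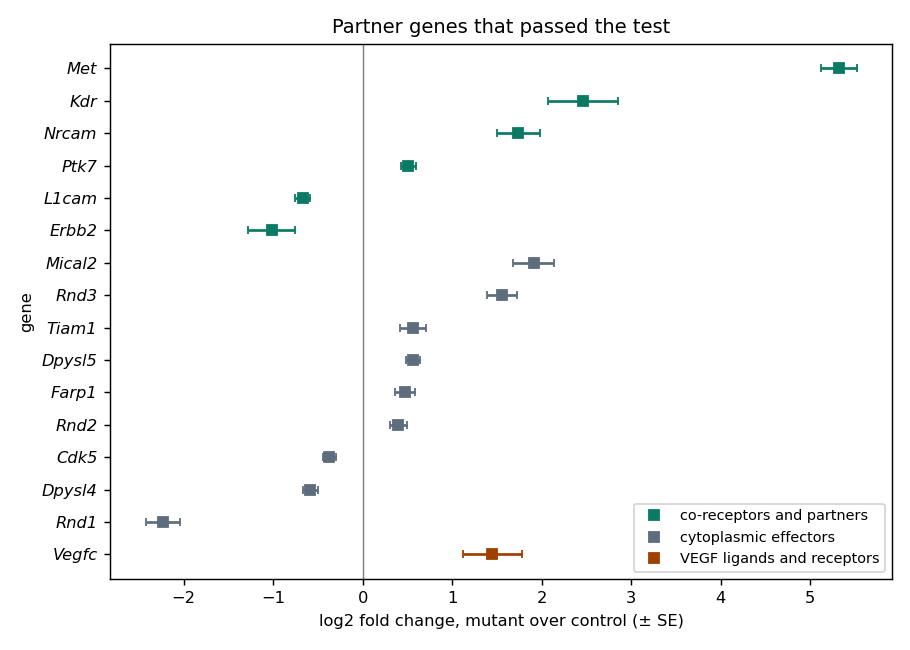
Log2 fold change, mutant over control, with its standard error for the 16 partner genes that passed, grouped as co-receptors, effectors and VEGF genes. Met at 5.32 lies farthest to the right and Rnd1 at -2.23 farthest to the left.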

How the data were processed

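Total RNA of 6 libraries was sequenced from a stranded kit, per the labels' protocols. The deposited tables give, for each of 97251 transcripts, the authors' estimated counts and TPM, per the file headers. FastQC, kallisto and mm9 are named, per the submitters' processing notes, while versions and settings are not given in the sources used here. Effective lengths in the deposited tables defined the library types. Transcripts were joined by identifier to GENCODE vM21 (84637 joined, 87.0%), used for names only. The 12614 others held 6.85% to 8.58% of counts. The estimated counts of a gene's transcripts were added up and rounded (34289 genes), and 16985 genes passed filterByExpr (minimum count 10, minimum total 15). The test was edgeR 4.0.16 (R 4.3.3, quasi-likelihood, TMM, Benjamini-Hochberg over all tested genes, adjusted p under 0.05) with genotype and library type as terms. Standard errors are the size of the log2 fold change over the square root of F. DESeq2 1.42.0 served as an alternative, and scripts were tested on simulated data. Deposited TPM summed to genes was used to compare genes within a library. Members, lists and tests were chosen with earlier results of these data known. Every member is named, each called member by library, and from each partner list up to 3 called genes per direction with the smallest p. Rnd2 and some partners that did not pass are named beside their relatives. Replicate numbers follow the order of deposit and pair nothing. Estimated counts carry counting error and the error of dividing reads among transcripts.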

Additional observations from a re-analysis of the deposited data

Results flagged for a closer look

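The genotype effect on Zbtb18 differed between the library types by 3.75 ± 0.17 on the log2 scale (estimated-length minus fixed-length, SE, edgeR adjusted p = 0.00963 over all genes). Zbtb18 had a log2 fold change of -5.36 ± 0.13 within fixed-length libraries (mutants 1 and 2 against control 1) and of -1.61 ± 0.13 within estimated-length libraries (mutant 3 against controls 2 and 3). All 3 mutants were lower than all 3 controls. Mutant 3 is the only mutant of its type, so the library and the type cannot be told apart.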

How the results depend on the processing

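No paired analysis was possible because the labels give no replicate numbers. Without a term for library type, members called were 3 higher and 2 lower (11 and 4 with it), all genes 270 higher and 130 lower (1346 and 1191 with it), and partners 2 higher and 1 lower (11 and 5 with it). The DESeq2 Wald test called 2272 genes and 9 partners lower. Leaving out 1 library gave 8 to 12 members higher and 3 to 5 lower, 785 to 1589 genes higher and 509 to 1445 lower, and 5 to 10 partners higher and 2 to 5 lower. Over all genes the counts were 994 higher and 563 lower without mutant 3, 785 and 509 without control 1, 844 and 566 without control 2, and 830 and 599 without control 3. In these 6 fits 9 members were called each time, and Plxna4, Sema3a, Sema3b, Sema3e, Sema4b and Sema6c lost the call at least once. No direction of a named gene reversed past the threshold. With 3 libraries a genotype, several calls depend on 1 library, though the size of the change moved little for some of these genes. Within the fixed-length libraries, which lack mutant 3, log2 fold changes were -1.66 for Sema3b, 2.21 for Sema3e and 0.49 for Sema4b. Over both types they were -1.68, 2.25 and 0.46. Sema3a had 0.98 within fixed-length libraries and 1.24 over both types, and Sema6c had 0.40 and 0.49. Genes near the floor, such as Sema3b and Plxnb3, are the least certain. The cause was not tested.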
